A study of Rattus norvegicus with 12 samples.

Results

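The early response to GW5074 was read in rat cerebellar granule neuron cultures by setting 3 arrays labelled GW at 3 h against 3 arrays labelled LK (low potassium) at 3 h. The arrays were chosen by title, and these 6 of the 12 arrays in the study carry the comparison over 18625 probe sets, which represent 10259 genes. Each group holds the letters A, B and C, and arrays of one letter were also treated as pairs. The other 6 arrays are the same treatments at 6 h, 3 arrays each. They share the estimate of the spread and serve as a later reference point.

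Per the labels, all samples are total RNA from rat cerebellum, the GW group was exposed to the compound GW5074, and the LK group had low potassium. Whether potassium was lowered in the GW group too is not stated in the labels. They give no dose, no strain or age of the animals, and no group in raised potassium or without treatment. Nor is it stated that A, B and C are separate cultures, and p-values below may therefore measure technical spread only. One 6 h title (GW, letter A) ends in a suffix unlike the others, which no label explains, and it was kept in its group.

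Granule neurons are the small excitatory neurons of the cerebellum. In culture they are kept alive by raised potassium, which depolarises them and lets calcium in, and lowering the potassium sets off a slow death that needs new transcription. In that death the stress kinases of the JNK family act on Jun, a subunit of the AP-1 transcription factor, while the survival kinase AKT loses activity and FOXO factors enter the nucleus. GW5074 is a small-molecule kinase inhibitor known for protecting granule neurons in low potassium. Raf kinases sit above MEK and ERK, whose activity is dampened by phosphatases of the Dusp family.

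The labelled cell type was checked against its markers. Of 36 granule neuron genes listed, 32 were tested, and their summed intensity was between 25500 and 30690 in low potassium and between 25520 and 28640 with GW5074, so the groups overlapped. Among them Slc17a7, the vesicular glutamate transporter, had a log2 difference of -0.02, the transcription factor Neurod1 -0.03 and Pax6 0.03. Other members were further from 0, and 25 of the 32 were negative, as described with the list below. Glial markers were summed in the same way. The 13 astrocyte markers tested summed to between 3906 and 4703 in the LK group, against 3833 to 4128 in the GW group. For the 10 of oligodendrocytes these ranges were 3921 to 4916 and 3325 to 4189, and both lists overlapped between the groups. No detection calls come with the values, so which markers lie at background is not known. In these bulk cultures fewer cells of a type and less RNA per cell cannot be told apart.

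Unless another scale is named, intensities are the deposited linear values, in the order A, B, C. A log2 difference is GW5074 minus low potassium on quantile-normalised values with 16 added, which understates the change of dim genes. Its SE is from the fit with pairs. A gene is represented by its brightest probe set. Tests used limma with Benjamini-Hochberg adjustment over all probe sets, and a probe set was called at an adjusted p under 0.05. Groups were "apart" when, on the normalised values, all 3 GW5074 arrays lay on one side of all 3 low-potassium arrays. Many values depended on single arrays. Leaving out 1 array moved 71 of 135 named values by over 1.5 times or turned their sign. Some of these cases are given beside the gene, and a value without such a remark is not thereby stable. Of genes named below, Syt4 went from 0.18 to 0.02 and Manf from 0.21 to 0.03 without the low-potassium array of C. Ccng2 went from -0.25 to -0.09 without the GW5074 array of A. A fit with 1 array left out has no pairs and leaves the letters unequal between the groups. The shift therefore also holds differences between letters.

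Few probe sets were called at 3 h, and 3 arrays per group cannot tell how many genes responded. Without pairs, limma called 0 of 18625 probe sets (0%). An unadjusted p under 0.05 was found for 305, where a share of 0.05 would be 931, and the lowest adjusted p was 1. With pairs it called 3 (0.0161%), of which 1 was higher and 2 lower with GW5074, and 1218 had an unadjusted p under 0.05. Both of the lower ones measure Jun. The higher one, 1382107_at, has no gene symbol in the tables used here.

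Jun fell at 3 h, in every pair, and all 3 of its probe sets had a negative difference. The brightest (1389528_s_at) read 300.9, 315.4 and 368.4 in low potassium against 166.7, 144.2 and 130.0 with GW5074. The highest GW5074 array therefore lay well below the lowest low-potassium array. The means were 328.2 ± 35.5 and 147.0 ± 18.5 (SD, n = 3 each), a log2 difference of -1.08 with an SE of 0.14 (paired limma adjusted p = 0.0161). Without pairs the SE was 0.26 and the adjusted p 1. By pair the difference was -0.78 (A), -1.04 (B) and -1.42 (C). Leaving out any single array moved it only between -1.18 and -0.98. This was the one gene of the 10259 whose difference exceeded 2-fold on the normalised values with 16 added. Deposited means of some dim genes differed by more than 2-fold. Examples are Arhgef11 (15.9 in low potassium, 38.7 with GW5074) and Acad11 (54.6 and 23.7).

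The other Jun probe sets gave the same picture. The one named 1369788_s_at read 220.9, 223.6 and 290.9 in low potassium against 110.3, 117.3 and 117.4 with GW5074, a log2 difference of -0.99 (paired limma adjusted p = 0.0236). The third, 1374404_at, read 127.2, 126.4 and 119.0 against 68.1, 69.2 and 82.4, with a difference of -0.68. It missed the threshold (paired limma adjusted p = 0.246), although its groups were apart too. Jun was called in 10 of the 14 settings with pairs as a fixed block, with paired limma adjusted p between 0.00177 and 0.657, and was not called with pairs as a random block (0.225). Its call was lost without the 3 h pair of letter B (adjusted p = 0.17, log2 -1.10) or C (0.321, log2 -0.91), without the filter on dim probe sets (0.16) and without the mean-variance trend (0.657).

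The unnamed probe set 1382107_at rose. It read 260.7, 164.1 and 155.8 in low potassium against 417.2, 310.9 and 343.6 with GW5074, so the groups were apart and the A arrays were the highest in both. Its log2 difference was 0.84 with an SE of 0.13 (paired limma adjusted p = 0.0475), and it was called in 8 of the same 14 settings, but not with pairs as a random block (0.225). Its call was lost without any one of the 3 h pairs, with a limma adjusted p of 0.121 (A), 0.499 (B) and 0.477 (C), and with a pseudocount of 4, no filter or no trend (0.069, 0.245 and 0.657). At 6 h its difference was 0.05.

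**Figure D1:**
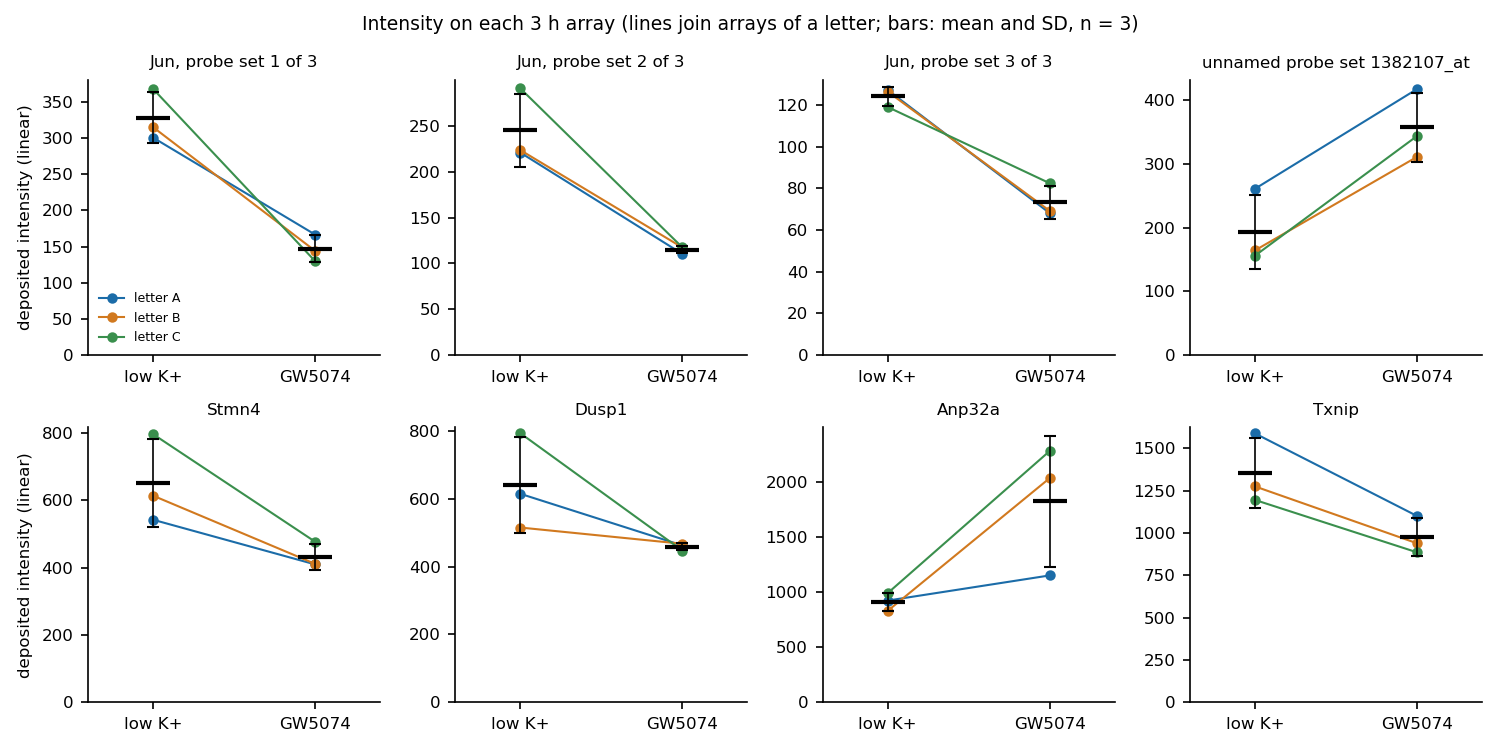
Deposited intensity (linear axis from 0) on each of the 6 arrays at 3 h for the 3 Jun probe sets, the unnamed probe set 1382107_at, Stmn4, Dusp1, Anp32a and Txnip. Coloured lines join the arrays of a letter, and black bars give the mean and SD (n = 3 each). Every line slopes down for Jun, Stmn4, Dusp1 and Txnip and up for the unnamed probe set and Anp32a, and the Anp32a line of letter A is the flattest of its 3.

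Outside Jun the pairs shared little. The SD of a pair's log2 difference over genes was 0.27, 0.25 and 0.26 for pairs A, B and C. Across the 10259 genes, which are not independent replicates, the differences of pairs A and B correlated at r = 0.0017, those of A and C at 0.022 and those of B and C at 0.091. The corresponding values at 6 h were 0.23, 0.23 and 0.17. At 3 h, 304 genes (2.96%) were apart with GW5074 higher and 444 (4.33%) with GW5074 lower, and the median over all genes was -0.01. With pairs, 221 genes (2.15%) had an unadjusted p under 0.05 and a higher value with GW5074, and 364 (3.55%) a lower one. These 4 percentages are the background for the counts of gene lists below.

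Some signs of sample handling moved with the letters, and others differed between the treatments within a letter. The poly-A spike-in controls gave a mean log2 signal of 6.58 and 6.44 on the A arrays (low potassium and GW5074) and between 7.60 and 7.78 on the B and C arrays. The 3-prime minus 5-prime log2 difference of actin, which grows as RNA degrades, exceeded that of low potassium by 0.022 in pair A, 0.018 in pair B and 0.30 in pair C with GW5074. For GAPDH the same measure differed by -0.019, 0.070 and 0.044. The mean log2 signal of the hybridisation spike-in controls was higher with GW5074 in each pair, by 0.16 (A), 0.22 (B) and 0.15 (C). The part of these handling signs in the gene values was not tested.

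Among the 12 largest higher values whose groups were apart and whose paired p was under 0.05 before adjustment, none was called. Anp32a, an acidic nuclear protein that inhibits a phosphatase and binds histones, stood out by its level. It read 923.5, 829.5 and 990.1 in low potassium against 1152, 2035 and 2281 with GW5074. The groups were apart, but the GW5074 array of letter A lay much closer to low potassium than those of B and C did. The log2 difference was 0.89 with an SE of 0.17 (paired limma adjusted p = 0.181), by pair 0.29, 1.18 and 1.20.

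The other 11 were dim, each with a low-potassium mean under 100. Arhgef11, a guanine nucleotide exchange factor, read 16.3, 20.1 and 11.4 against 49.7, 40.8 and 25.5, a log2 difference of 0.77. Cep95, a centrosomal protein, read 36.2, 51.4 and 56.7 against 83.1, 81.4 and 101.4 (0.74). Rasa2, which switches Ras off, read 30.0, 21.5 and 34.5 against 53.5, 45.5 and 63.7 (0.67). Its 3 pairs lay close together, between 0.58 and 0.77.

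The remaining 8 had log2 differences between 0.55 and 0.64. They are Sgsm2, a regulator of Rab GTPases (0.64), the pseudophosphatase Styxl1 (0.63), Tctn1 of the ciliary transition zone (0.59) and Zbtb11os1, a transcript named for its place opposite another gene (0.58). The chloride channel family member Clic2 had 0.57, Tmem161a 0.57, Mylip, a ubiquitin ligase acting on lipoprotein receptors, 0.55 and the ubiquitin ligase Trim36 0.55. Among the 12, 1 array moved 2 values by over 1.5 times. Sgsm2 had 0.28 without the low-potassium array of letter A, and Styxl1 0.38 without the same array.

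Of the 12 largest lower values by the same rule, Jun is the first and the only one called. Ranbp6, a member of the importin family, was the brightest of the others. It read 525.6, 420.3 and 488.4 in low potassium against 266.1, 283.7 and 360.8 with GW5074, with every GW5074 array below every low-potassium array. Its log2 difference was -0.61 with an SE of 0.12 (paired limma adjusted p = 0.181). Asl, the argininosuccinate lyase of the urea cycle, read 112.6, 143.1 and 99.4 against 48.9, 76.4 and 77.2, a difference of -0.72 (paired limma adjusted p = 0.266). Its other probe set had only -0.20, with overlap. Xrcc4, a ligase partner in the joining of DNA ends, read 139.4, 95.6 and 111.0 against 71.7, 79.3 and 58.5 (-0.64), and its other probe set had -0.07.

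The other 8 had low-potassium means under 100. The acyl-CoA dehydrogenase Acad11 read 54.2, 60.2 and 49.5 in low potassium against 11.3, 35.1 and 24.7 with GW5074, a log2 difference of -0.90 (paired limma adjusted p = 0.266). Hes5, a repressor induced by Notch signalling and listed here as an astrocyte marker, read 41.9, 44.3 and 39.4 against 5.86, 16.4 and 29.3 (-0.88). The low-potassium arrays of Hes5 lay close together while those with GW5074 were spread. The homeobox factor Cdx2 had -0.85, the sodium-proton exchanger Slc9a2 -0.70, Cmtm5 -0.70, the glycosyltransferase Gcnt2 -0.67, the mitochondrial reductase Mtarc2 -0.67 and the laminin chain Lama5 -0.62. Of these Slc9a2 had -0.28 without the GW5074 array of letter A, Mtarc2 -0.35 without that of C, and Lama5 -0.27 without that of B.

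**Figure D2:**
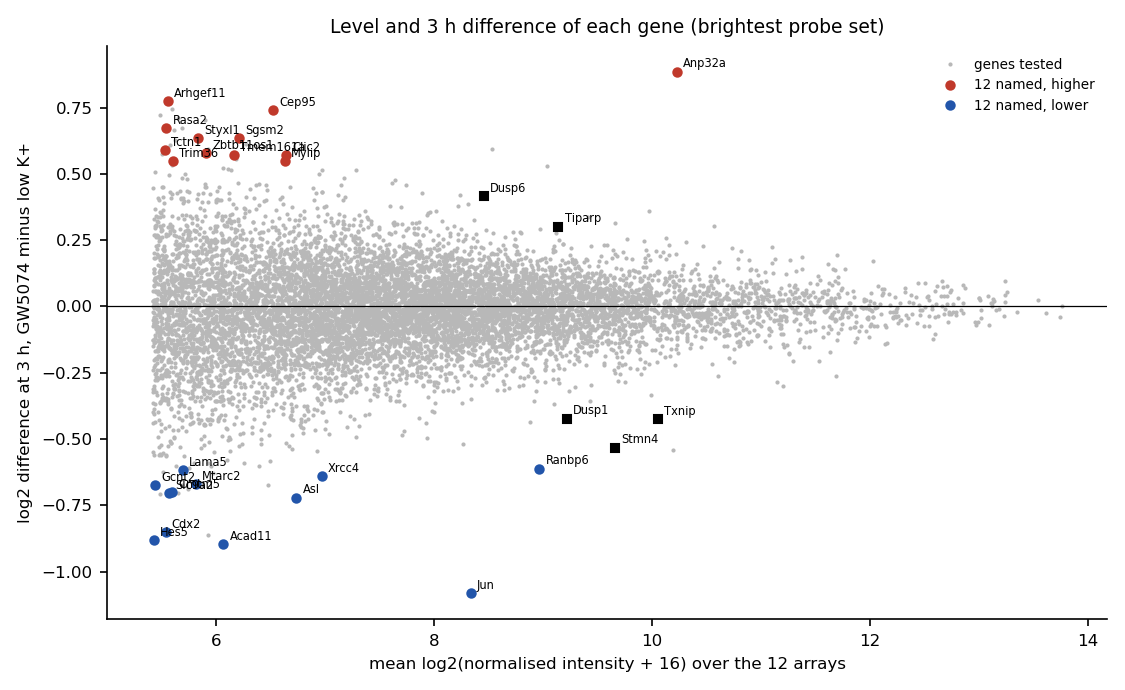
Log2 difference at 3 h (GW5074 minus low potassium) against the mean log2 normalised intensity over 12 arrays, for the 10259 genes tested (grey). Red and blue points are the 12 largest higher and lower values named by the rule, and black squares mark Stmn4, Dusp1, Txnip, Dusp6 and Tiparp. Most named genes lie at the dim left edge, while Jun (-1.08), Ranbp6 and Anp32a (0.89) stand apart from genes of like level.

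**Figure D3:**
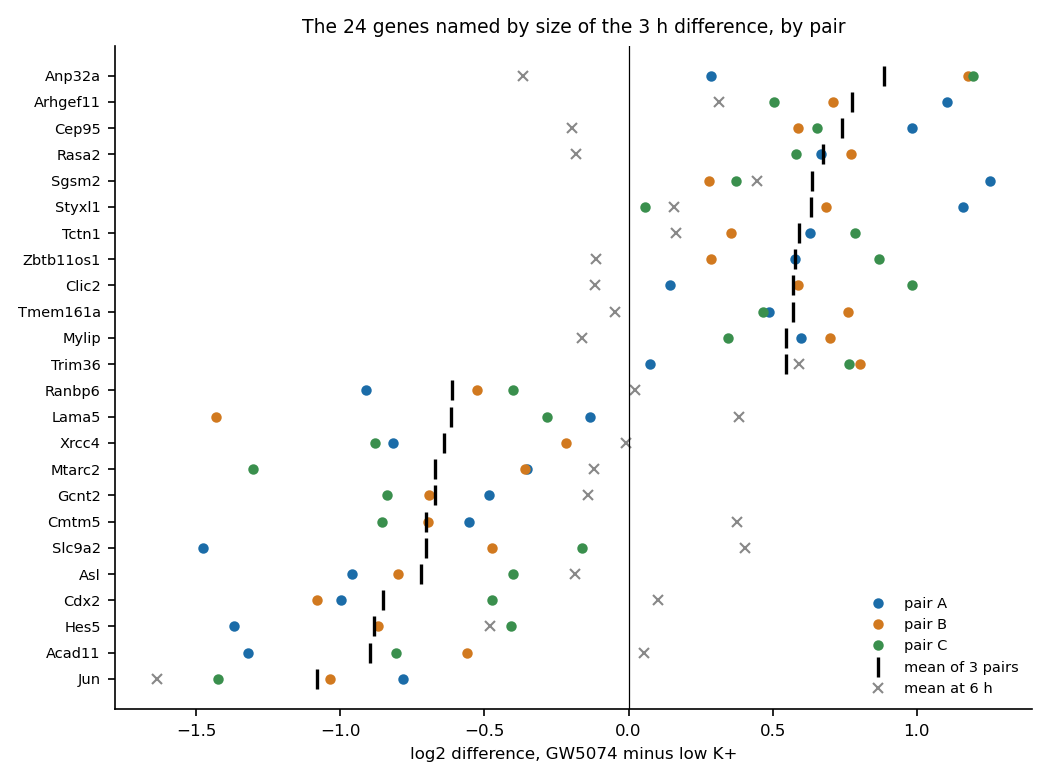
Log2 difference of each pair (coloured points), their mean (black bar) and the mean at 6 h (grey cross) for the 24 genes named by size. All pairs of a gene lie on one side of 0 at 3 h, which the rule for naming nearly fixes, and only Jun keeps a 6 h value beyond its 3 h value in the same direction among the 12 lower genes.

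AP-1 dimers are built from Jun, Fos and ATF proteins. Of 12 AP-1 and ATF genes tested of 16 listed, 1 (Jun) passed, 7 had negative and 5 positive differences, and the median was -0.15. The groups were apart and lower for 2 of them (16.7%, against 4.33% of all genes). Those 2 are Jun and Jdp2, a repressor that pairs with Jun, which read 53.8, 63.3 and 58.5 against 46.2, 40.8 and 33.3 (-0.42).

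Jund, a Jun family member that neurons express at a steady level, read 3007, 3157 and 3933 in low potassium against 2833, 3058 and 2790 with GW5074. The groups overlapped, and the high low-potassium array of letter C carried much of the log2 difference of -0.20, which was -0.08 without it. Junb (133.5, 204.1 and 201.2 against 178.6, 220.1 and 170.4) had 0.08, with the sign of pair C opposite to those of A and B. Neither relative thus had a value near that of Jun, although the difference between these genes was not tested. Fos read 508.5, 506.0 and 518.6 in low potassium against 496.5, 643.2 and 511.3 with GW5074 (0.10), and 5 of the 6 arrays lay between 496.5 and 518.6. Atf3, a stress-induced partner of Jun, read 256.7, 452.8 and 640.3 against 249.5, 343.6 and 464.7 (-0.28). Letter A was the lowest and C the highest array in both treatments, and the difference was -0.61 without the low-potassium array of A and -0.002 without that of C.

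Immediate early factors are switched on by activity within minutes to hours. Of 23 tested, 0 passed, and 13 had positive and 10 negative differences (median 0.03). The groups were apart for 3 with GW5074 higher (13.0%, against 2.96%) and 2 with it lower (8.7%, against 4.33%). The clock gene Per2 read 120.4, 165.6 and 120.8 in low potassium against 196.4, 201.4 and 177.3 with GW5074, a log2 difference of 0.46 with an SE of 0.13 (paired limma adjusted p = 0.624). Btg1, an antiproliferative factor, read 1507, 1513 and 1610 against 1369, 1385 and 1292 (-0.18), also apart. The 3 Egr factors lay between -0.28 and 0.15 and the 3 Nr4a receptors between -0.09 and 0.28.

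Among 20 effectors that neuronal activity induces, 0 passed and the median was -0.01. Nrn1 (neuritin), a secreted protein that promotes neurite growth, read 2743, 3245 and 3333 in low potassium against 3531, 3434 and 3998 with GW5074. The groups were apart and the difference was 0.22. The opioid precursor Penk had 0.36 with overlapping groups, and Bdnf, the neurotrophin, read 652.8, 567.0 and 601.1 against 613.9, 655.8 and 723.2 (0.13), while its other probe set had -0.42. The 12 MEF2 and CREB factors, which carry the calcium signal for survival, had a median of -0.04, and 0 passed. Creb1 had 0.23.

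Kinases of the RAF, MEK and ERK chain, with RAS and the effectors, numbered 23 tested of 31 listed, and 0 passed (median -0.03, from -0.23 to 0.25). The groups were apart for 1, with GW5074 higher (4.35%, against 2.96%). Araf, the one Raf family member tested, read 688.8, 619.9 and 590.0 in low potassium against 701.1, 623.7 and 534.2 with GW5074 (-0.03), so pairs A and B nearly coincided. The kinase Mknk2, an ERK effector, had -0.23, which was 0.0046 without the GW5074 array of letter A. Of 17 JNK and p38 cascade genes 0 passed (median 0.01). Map3k1, at the top of the JNK cascade, read 1073, 1273 and 1541 against 1116, 1373 and 2148 (0.21). By pair the difference was 0.04, 0.08 and 0.52, and it was -0.07 without the GW5074 array of C. The p38 kinase Mapk12 was dim and had -0.59, or -0.32 without the GW5074 array of A.

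The dampers of MAP kinase signalling had values in both directions. Of 15 tested 0 passed, but 4 (26.7%) had an unadjusted paired p under 0.05 and a higher value, against 2.15% of all genes, and 1 a lower one. Dusp6, the phosphatase that acts on ERK in the cytoplasm, read 386.6, 457.2 and 397.3 in low potassium against 555.7, 561.0 and 563.2 with GW5074. The GW5074 arrays nearly coincided, and all lay well above the highest low-potassium array. The log2 difference was 0.42 with an SE of 0.12 (paired limma adjusted p = 0.624), its 3 probe sets had the same sign, and single arrays moved it between 0.37 and 0.49. Dusp5, an ERK phosphatase of the nucleus, read 981.1, 1030 and 1227 against 1154, 1306 and 1238 (0.20), with overlap. Gadd45g, a stress sensor acting on MAP3 kinases, had 0.25 and the ERK pathway inhibitor Spry4 0.43, both with overlap. Not every pair of Spry4 was positive.

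Dusp1, the stress-induced phosphatase of JNK and p38, lay on the other side. It read 614.3, 514.9 and 792.8 in low potassium against 462.0, 467.0 and 446.8 with GW5074, so the low-potassium arrays were spread and the GW5074 arrays tight. The groups were apart, and the other probe set had -0.46 with overlap. The log2 difference was -0.42 with an SE of 0.12 (paired limma adjusted p = 0.624), and -0.27 without the low-potassium array of C.

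The promoters of the genes named were searched for the cAMP response element, a site bound by CREB and ATF proteins and by Jun paired with ATF2, because Dusp1 and Jund stand among the genes described. The motif is TGACGTCA, which reads the same on both strands, and the window was the 250 bases before the gene start in RefSeq's GRCr8 table. Of 41 genes named as largest values or presets 33 have an entry there, and 4 of those hold the motif. The motif is present in 466 (1.7%) of all 27457 promoters listed. Dusp1 and Jund, which prompted the choice of motif, are among the 4, so the shares cannot be compared as a test. A match is a description of these letters and not a bound site. The stretches follow, 5′ to 3′ on the gene's strand, with the motif in capitals.
Dusp1, chr10:17184709-17184756 (plus strand, GRCr8): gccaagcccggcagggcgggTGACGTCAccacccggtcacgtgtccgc
Jund, chr16:18769965-18770012 (minus strand, GRCr8): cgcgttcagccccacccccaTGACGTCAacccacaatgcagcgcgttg
Ranbp6, chr1:236990492-236990539 (minus strand, GRCr8): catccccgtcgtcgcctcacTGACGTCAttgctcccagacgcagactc
Styxl1, chr12:26543945-26543978 (plus strand, GRCr8): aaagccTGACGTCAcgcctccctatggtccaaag
The motif ends 116 bases before the start of Dusp1, 213 before that of Jund, 60 before that of Ranbp6 and 236 before that of Styxl1. Beside these sequences stand log2 differences of -0.42 (Dusp1), -0.20 (Jund), -0.61 (Ranbp6) and 0.63 (Styxl1), which is 3 negative values and 1 positive.

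Stmn4, a stathmin that binds tubulin in neurons, came next to Jun in the strength of its paired test among named genes. It read 542.3, 613.8 and 796.5 in low potassium against 409.6, 411.2 and 476.9 with GW5074, so the groups were apart, and letter C was highest in both. The log2 difference was -0.53 with an SE of 0.09 (paired limma adjusted p = 0.134), by pair -0.39, -0.52 and -0.68. Of 46 stathmins, tubulins, microtubule-associated proteins and kinesins 0 passed (median -0.02). The growth-associated stathmin Stmn1 had -0.11 and Map1b, which stabilises axonal microtubules, -0.14.

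Genes of the death machinery gave 0 calls. The 8 BH3-only genes, the triggers of mitochondrial death, had a median of 0.00, and the 6 multidomain Bcl-2 genes 0.03. Hrk, a BH3-only gene induced when granule neurons lose potassium, was dim: 24.2, 24.4 and 38.9 in low potassium against 21.1, 47.5 and 53.6 with GW5074 (0.31), with overlap. Bcl2l11 (Bim) read 617.2, 610.0 and 700.8 against 614.6, 554.5 and 626.3 (-0.09, and 0.17 on its other probe set), and Bbc3 (Puma) 336.9, 501.3 and 381.3 against 393.9, 371.2 and 328.5 (-0.14). Neither pair of groups separated. Bak1, a pore-forming death protein, had -0.24 with its groups apart. Of 13 caspase and apoptosome genes 0 passed (median 0.03). Casp9, the initiator caspase of the apoptosome, had 0.19, and its other probe set did not share that sign.

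FOXO factors and their targets, which respond when AKT activity is lost, had mostly negative values. Of 20 tested 0 passed, 14 were negative (70.0%, against 52.9% of all genes) and the median was -0.08, by pair -0.10 (A), -0.01 (B) and -0.01 (C). An unadjusted paired p under 0.05 with a lower value was found for 4 (20%, against 3.55%). Txnip, the thioredoxin-binding protein that limits glucose uptake, read 1589, 1276 and 1196 in low potassium against 1101, 939.7 and 886.3 with GW5074. Its groups were apart and letter A was highest in both. The log2 difference was -0.42 with an SE of 0.08 (paired limma adjusted p = 0.181). Foxo3 read 1252, 1068 and 1256 against 1066, 928.7 and 937.6 (-0.26), apart by a narrow margin. The dimmer factors Foxo1 and Foxo4 had -0.27 and -0.33, both with overlap and neither negative in every pair. The cyclin Ccng2 had -0.25 and the cell cycle inhibitor Cdkn1b -0.15, a sign that the other probe set of Cdkn1b did not share.

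In the PI3K and AKT list of 18 genes 0 passed (median -0.01). The lipid kinase subunit Pik3cd was dim and had -0.63. The regulatory subunit Pik3r2 had -0.26, and its other probe set did not share that sign. Of 15 p53 genes 0 passed (median 0.00), and the groups were apart and higher for 4 (26.7%, against 2.96%). Ccng1 read 2642, 2677 and 2516 in low potassium against 2931, 2845 and 2847 with GW5074 (0.14), a small difference with the groups apart. Perp, a p53-induced membrane protein, had -0.53 and Phlda3, an inhibitor of AKT, -0.43, both with overlap. Without the GW5074 array of C they had -0.30 and -0.10, and the other probe set of Perp had the opposite sign.

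Targets of the aryl hydrocarbon receptor, which senses many aromatic ligands, were few: 5 genes were tested of 13 listed, and 0 passed. Tiparp read 583.4, 638.1 and 729.4 in low potassium against 779.7, 856.5 and 784.6 with GW5074, with the groups apart and a log2 difference of 0.30 (SE 0.10, paired limma adjusted p = 0.665). The cytochrome Cyp1b1 read 85.1, 75.5 and 111.0 against 100.3, 150.1 and 128.1 (0.43). Its groups overlapped, and pair B (0.91) was far above pairs A (0.25) and C (0.14).

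Stress pathways gave 0 calls as well. The 25 NRF2 and antioxidant genes had a median of -0.003, which is 0.012 on the authors' scaling, and the metallothionein Mt1 had 0.45 (0.29 without the low-potassium array of A). Its groups were apart on the normalised values only, since the deposited ones overlap. The 30 ATF4 and amino acid response genes had a median of -0.07, with 20 negative (66.7%, against 52.9% of all genes). Among them the arginine transporter Slc7a3 had -0.28, Chac1, which degrades glutathione, -0.44 and the mTOR inhibitor Ddit4 -0.21, all with overlap. Chac1 ranged from -0.79 (without the low-potassium array of A) to -0.12 (without that of C). Of 23 ER folding genes 17 were positive (73.9%, against 47% of all genes), with a median of 0.08. That median did not hold in each pair, being 0.08 in A, -0.12 in B and 0.23 in C. Manf, a secreted ER stress protein, had 0.21. The 18 cytosolic heat shock genes had a median of -0.04, and inducible Hspa1a read 199.8, 186.4 and 209.3 against 165.6, 155.9 and 159.8 (-0.29), with the groups apart.

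Cytosolic ribosomal protein genes had mostly small positive values: 37 of 45 (82.2%, against 47% of all genes) were above 0, with a median of 0.03. On the authors' scaling 43 were above 0 and the median was 0.09, so the size of this shift depended on the scaling. The list member Rps27l, a relative of a ribosomal protein that p53 induces, read 77.3, 66.9 and 51.3 in low potassium against 82.6, 85.4 and 96.4 with GW5074 (0.38). Of 73 mitochondrial ribosomal genes 8 were apart and higher (11.0%, against 2.96%), with a median of 0.04. Examples are Mrpl54 (0.18), Mrpl1 (0.22) and Mrps31 (0.30), while Mrps27 had -0.25. Translation factors numbered 61 (median 0.02), and Eif4e3, a cap-binding protein, read 171.3, 163.8 and 161.4 against 208.1, 216.5 and 235.4 (0.38), apart. None of these passed.

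Energy and sterol genes stayed within small values, with 0 calls. The 75 subunits of oxidative phosphorylation had a median of 0.00, from -0.24 to 0.46, and the complex I subunit Ndufc1 read 1003, 1047 and 1133 against 1168, 1239 and 1281 (0.21). The 31 glycolysis and hypoxia genes had a median of -0.01. Of 24 cholesterol genes 18 were negative (75.0%, against 52.9%), with a median of -0.07, and Fdps, a synthase of the isoprenoid branch point, had -0.21. Autophagy and lysosome genes (31) had a median of 0.02. Ulk2, a kinase that starts autophagy, read 175.6, 177.6 and 184.3 in low potassium against 245.3, 237.7 and 203.1 with GW5074 (0.32).

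**Figure D4:**
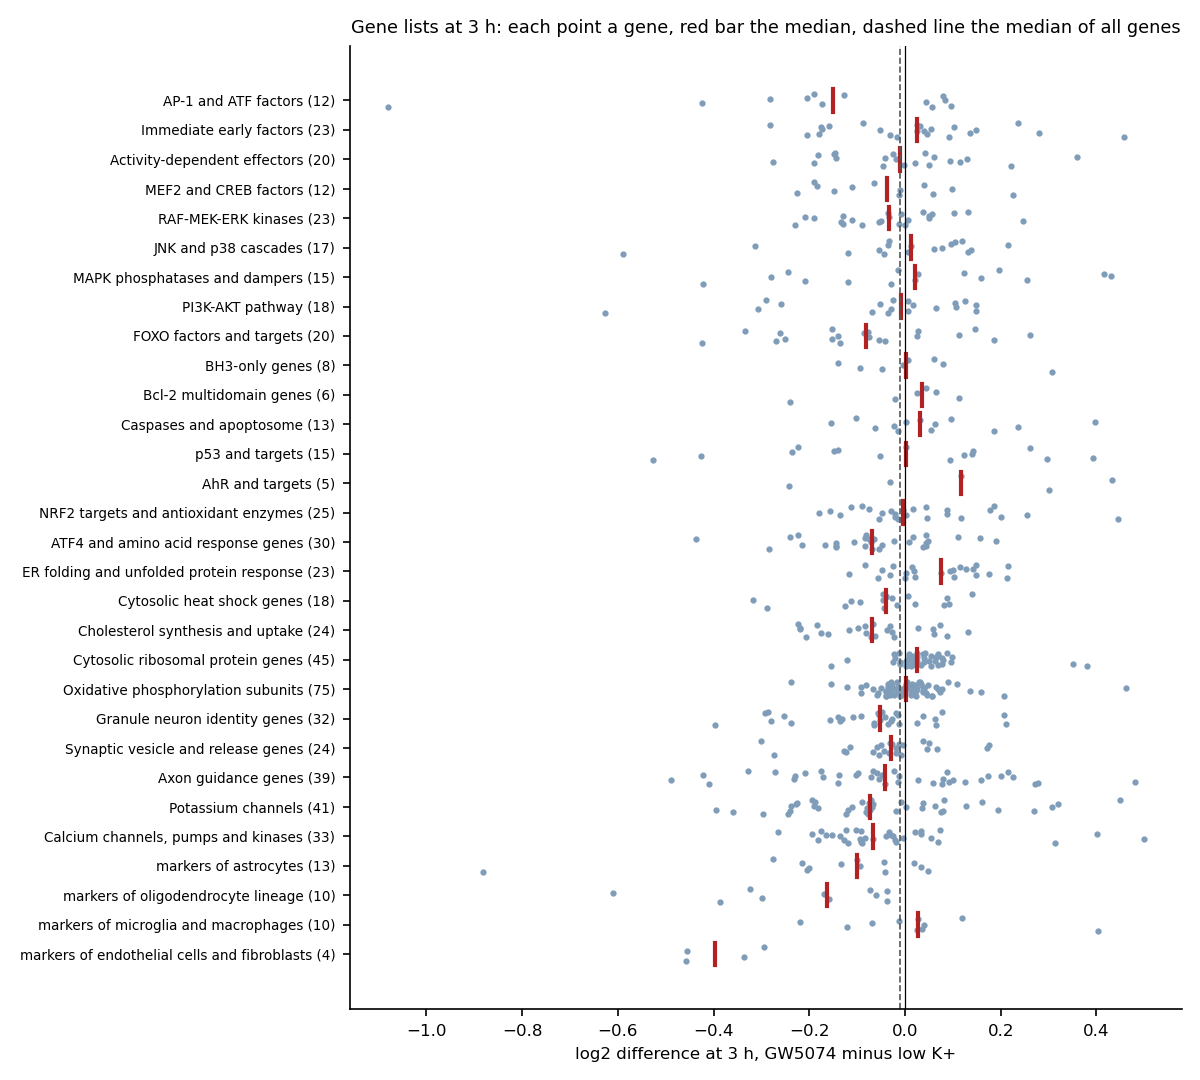
Log2 difference at 3 h of each gene (points) in 30 of the gene lists, with the number tested in brackets, the list's median (red bar) and the median over all genes (dashed line, -0.01). Most medians lie within 0.1 of 0, and Jun is the leftmost point. Lower medians are those of endothelial and fibroblast markers (-0.40, mainly collagens and Acta2), oligodendrocyte markers (-0.16) and AP-1 factors (-0.15).

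Granule neuron identity genes had mostly small negative values. Of 32 tested 0 passed, 25 were negative (78.1%, against 52.9% of all genes) and the median was -0.05, by pair -0.11, -0.00 and -0.09. An unadjusted paired p under 0.05 was found for 7, all lower (21.9%, against 3.55%). Zic4, a zinc finger factor of the granule lineage, read 422.9, 309.2 and 314.2 in low potassium against 300.1, 276.9 and 280.0 with GW5074, apart, with a log2 difference of -0.25. Calb2 (calretinin), a calcium buffer, read 155.6, 144.6 and 191.6 against 132.1, 132.0 and 132.7 (-0.28). Zic2 had -0.40 and Etv1, a factor of granule neuron maturation, -0.29, with all 5 of its probe sets negative. Gabra6, the mature granule neuron's GABA receptor subunit, read 247.4, 188.5 and 465.4 against 177.6, 254.6 and 368.7 (-0.11), with pairs of both signs. The 18 mature features had a median of -0.05 and the 14 factors -0.06.

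Receptors and channels gave 0 calls. The medians were -0.02 for 7 GABA-A receptor subunits, 0.00 for 4 NMDA receptor subunits, -0.07 for 11 AMPA, kainate and delta receptor genes, and -0.02 for 4 metabotropic glutamate receptors. Gria2, the AMPA receptor subunit that blocks calcium entry, read 202.8, 231.1 and 255.7 in low potassium against 259.8, 312.9 and 344.0 with GW5074. Letter A was the lowest and C the highest array in both treatments, the groups were just apart, and the log2 difference was 0.38 with an SE of 0.10 (paired limma adjusted p = 0.558). Cacng2 (stargazin), which carries AMPA receptors to synapses, had 0.31 with overlap, and its other probe set did not share that sign. Cbln1, a synapse organiser released by granule neurons, had -0.14. Of 33 calcium channel, pump and kinase genes 24 were negative (72.7%, against 52.9%; median -0.07), and the channel subunit Cacnb1 had 0.40 and the store channel Ryr3 0.50, both dim. Ryr3 had 0.24 without the low-potassium array of A and -0.11 in pair B. The other probe set of Cacnb1 did not share its sign.

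Of 41 potassium channel genes 27 were negative (65.9%, against 52.9% of all genes; median -0.07). The leak channel Kcnk12 read 303.0, 286.2 and 297.1 against 238.6, 223.9 and 252.3 (-0.30), apart, while Kcnc1, a fast-spiking channel, had 0.32 and -0.03 without the GW5074 array of C. The 9 sodium channel and pump genes had a median of -0.07, and the pump subunit Atp1b2 read 576.4, 494.6 and 678.4 against 469.7, 414.7 and 526.1 (-0.28), with overlap. Axon guidance genes (39, median -0.04) included 5 with an unadjusted paired p under 0.05, all lower (12.8%, against 3.55%). The 4 of these named are semaphorins: Sema4g (-0.41) and Sema4f (-0.33), with groups apart, and Sema5a (-0.42) and Sema3g (-0.49), with overlap. Sema5a had -0.10 without the GW5074 array of B and Sema3g -0.20 without that of A. Among 24 synaptic release genes (median -0.03) Syn1, a vesicle protein, had -0.27 and the vesicle calcium sensor Syt4 0.18.

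In 2 lists of markers of other cell types, all members tested had negative values. All 10 oligodendrocyte lineage markers tested of 16 listed were negative, from -0.61 to -0.04 with a median of -0.16, by pair -0.04, -0.32 and -0.24, and 0 passed. The factor Sox10 read 53.8, 57.3 and 49.6 in low potassium against 46.6, 19.8 and 27.7 with GW5074 (-0.61), and the myelin protein Mag 133.2, 167.4 and 107.8 against 126.3, 112.8 and 71.1 (-0.39, or -0.14 without the GW5074 array of C). Their brightest marker, Mbp, had -0.07, and the summed level given above overlapped. Of 15 endothelial and fibroblast markers 4 were tested, and all were negative (median -0.40). The endothelial markers Pecam1, Cdh5, Tek, Flt1, Kdr, Vwf and Cldn5 were not among them. The values therefore describe mainly collagens and a contractile actin. The summed level of the 4 tested was 348.4, 258.9 and 275.7 in low potassium against 216.3, 183.8 and 237.8 with GW5074, without overlap. Acta2, a contractile actin, read 135.6, 97.2 and 104.6 against 70.0, 81.2 and 83.5 (-0.46), and the collagens Col3a1 and Col1a2 had -0.46 and -0.34, the latter -0.12 without the GW5074 array of B. Microglial markers (10, median 0.03) summed to between 991.1 and 1781 and between 970.9 and 1804, and 9 Purkinje and GABAergic markers had a median of -0.01. The astrocyte list had a median of -0.10. The part of these markers in the other values was not tested.

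Further lists gave 0 calls, with medians between -0.06 and 0.04. They cover aminoacyl-tRNA synthetases (19), proteasome subunits (39), cell cycle genes (32), histone deacetylases and chromatin factors (26), growth factors (30), cytokines (19), splicing factors (25), solute carriers (171), histones (11) and zinc finger genes (198). The linker histone H1f10 read 472.2, 471.2 and 527.2 in low potassium against 409.6, 420.4 and 381.1 with GW5074 (-0.26), apart.

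The 6 h arrays show how far the 3 h values lasted. They are separate arrays, so the comparisons share no sample. With pairs, limma called 347 of 18625 probe sets at 6 h (1.86%), and without pairs 0. Both Jun probe sets called at 3 h were also called at 6 h, where Jun had -1.64 (paired limma adjusted p = 2.7e-05). Over all genes the mean differences at 3 h and 6 h correlated at r = -0.028, as a description.

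Genes called at 6 h had little difference at 3 h. The 112 that rose at 6 h had a median of 0.47 there and -0.03 at 3 h, where 43 were positive and 69 negative and 0 were called. The 86 that fell had medians of -0.53 and -0.04, with 34 positive and 52 negative at 3 h. Of these 86, 11 were apart and lower at 3 h (12.8%, against 4.33% of all genes) and 2 apart and higher, and 1, Jun, was called. Plat, the tissue plasminogen activator, read 388.3, 446.8 and 450.3 in low potassium against 332.5, 436.9 and 386.6 with GW5074 at 3 h (-0.15), and had -1.07 at 6 h. Dusp1 had -1.05 and Atf3 -0.98 at 6 h. Txnip had -0.51 there, near its 3 h value, and Dusp6 -0.02.

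The difference between the 2 effects was tested for each probe set. With pairs 37 of 18625 passed (0.199%), and without pairs 0. For Jun the change of effect was -0.55, which missed the threshold (paired limma adjusted p = 0.236). For Stmn4 it was -0.94, from -0.53 to -1.48 (adjusted p = 0.0239), and for Anp32a -1.25, from 0.89 to -0.37 (adjusted p = 0.0441). Gadd45g went from 0.25 to -0.58 (adjusted p = 0.0313). In the other direction Atp1b2 went from -0.28 to 0.48 (adjusted p = 0.0313) and Sipa1l2, a regulator of Rap GTPases, from 0.13 to 0.85 (adjusted p = 0.0441). Sipa1l2 itself read 457.4, 478.4 and 566.5 at 3 h in low potassium against 481.1, 559.5 and 601.7 with GW5074, with overlap. These p-values are from limma with pairs, and without pairs none of the 5 passed. Named genes whose change of effect missed the threshold include Plat (paired limma adjusted p = 0.0544), Ranbp6 (0.117), Dusp1 (0.123), Dusp6 (0.289) and Atf3 (0.3235).

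**Figure D5:**
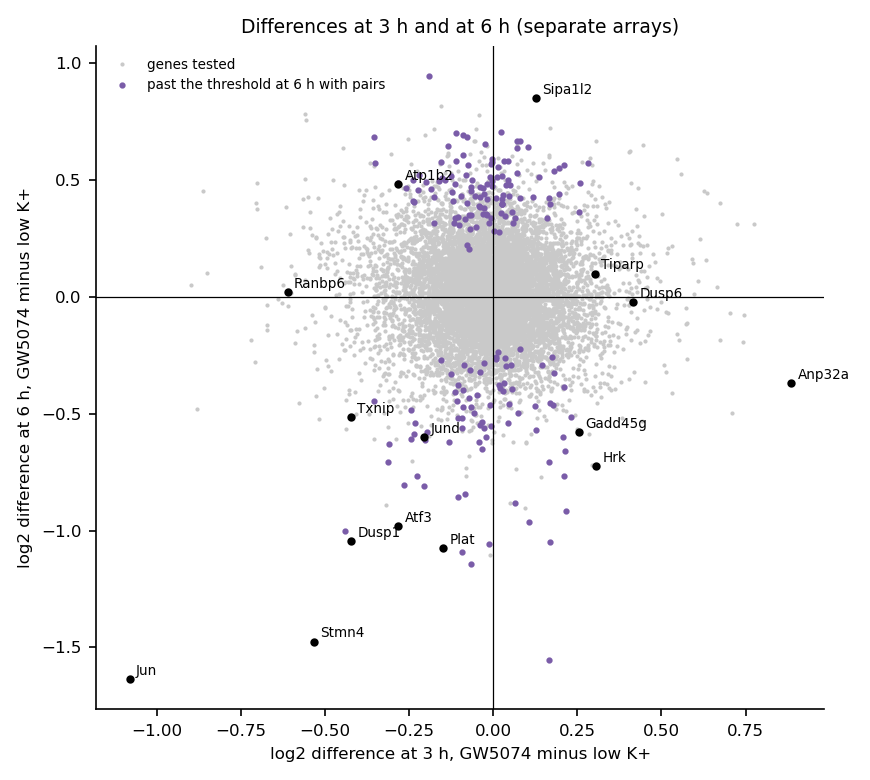
Log2 difference at 6 h against that at 3 h (GW5074 minus low potassium) for the 10259 genes tested. Purple points passed at 6 h with pairs, and named genes are black. Jun is far from 0 on both axes, Stmn4, Dusp1, Atf3 and Plat are far from 0 mainly at 6 h, and Anp32a, Dusp6 and Ranbp6 mainly at 3 h. Of the genes set apart by time here, only Stmn4 and Anp32a passed the paired test of the change of effect.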

How the data were processed

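Total RNA from rat granule neuron cultures was measured on 12 Affymetrix arrays, 3 per group, and the 6 arrays at 3 h carry the comparison. The authors deposited 1 linear intensity per probe set and array for 31099 probe sets, 57 of them controls. Judged by the values, each array had been scaled by the authors to a mean of 150 with 2% trimmed at each end. The summarisation software is not given in the labels or the file.

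Symbols came from the platform's probe table, updated through Entrez identifiers to a RefSeq rat table (GRCr8). Of 31042 non-control probe sets 20826 have 1 symbol (20758 matched by Entrez identifier, for 14217 genes), 436 several and 9780 none. Values were quantile-normalised, 16 was added and log2 taken. Probe sets with a mean log2 over 12 arrays at or above the 40th percentile were kept. limma 3.58.1 in R 4.3.3 (trend, two-sided, 4 group means, 8 residual degrees of freedom) was the main fit. A further fit had the letter within time as a replicate block, with 4 residual degrees of freedom. Arrays were paired by the letter in their titles. After removal of group means, same-letter arrays at 3 h correlated at 0.42, 0.21 and 0.54, each the best match of its letter, so paired values stand beside the others. The fit code was tested on simulated data. Figures used matplotlib 3.10.9.

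The genes named were every called probe set, the 12 largest higher and lower values with groups apart and a paired p under 0.05, preset genes, and up to 4 members of each of 52 lists with the smallest paired p. Of the last, the text names members whose p was under 0.05, or else the first, and other members named were chosen after their values were seen. The members and lists were chosen with earlier results of these data known. The number of arrays limits the precision.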

Additional observations from a re-analysis of the deposited data

Results flagged for a closer look

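The effect of GW5074 at 6 h differed from that at 3 h for 5 of the named genes when the difference itself was tested with pairs in limma. The change of effect (log2, 6 h minus 3 h) was -1.25 for Anp32a (adjusted p = 0.0441), -0.94 for Stmn4 (0.0239), 0.72 for Sipa1l2 (0.0441), -0.83 for Gadd45g (0.0313) and 0.77 for Atp1b2 (0.0313). Without pairs the limma adjusted p was 0.9998 for each.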

How the results depend on the processing

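Without pairs, limma called 0 probe sets at 3 h in every alternative run: 3 h arrays only, values as deposited, pseudocounts of 64 and 4, no filter, a 60th percentile filter, no mean-variance trend, array weights, and each 3 h array left out (0 to 0). The replicate block called 3, and with it the count was 5 on 3 h arrays only, 4 on values as deposited, 3 with a pseudocount of 64, 2 with a pseudocount of 4 and 3 with the 60th percentile filter. Leaving out whole pairs under the block gave 2, 0 and 0 (3 h pairs A, B and C) and 6, 3 and 4 (6 h pairs A, B and C). The block with no filter, with no trend, or as a random block called 0, and with the last Jun had an adjusted p of 0.225. The replicate block changed no other call of a named gene. Beyond Jun and 1382107_at, calls under paired alternatives were Anp32a (3 of 14 settings) and Ranbp6, Stmn4 and Txnip (1 each).

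Of 3845 values of 135 genes under alternatives, 3801 kept their direction and side of the threshold, 24 newly passed and 20, in 11 genes, turned sign. The main fit called 0 probe sets, so a kept side means only that the value was again not called. Sizes are not part of this count, and leaving out 1 array moved 71 of the 135 by over 1.5 times or turned their sign. Leaving out single arrays gave ranges of -0.0967 to 0.1808 for Junb, -0.0112 to 0.1687 for Fos, -0.2532 to 0.0133 for Bbc3, -0.1104 to 0.05 for Araf and -0.3708 to 0.2272 for Gabra6. They gave -0.3922 to 0.0046 for Mknk2, -0.0679 to 0.429 for Map3k1, -0.4722 to 0.1063 for Cdkn1b, -0.029 to 0.6348 for Kcnc1 and -0.0465 to 0.55 for the solute carrier Slc5a3. Yet the 3 pairs of Mknk2 were all negative, and those of Map3k1, Kcnc1 and Slc5a3 all positive. With the replicate block, leaving out a 3 h pair gave -0.0699 for Junb and 0.0529 for Gabra6 (A), -0.013 for Fos and -0.0003 for the glutamate receptor Grm8 (B), and 0.0001 for Araf (C). Array weights gave 0.0209 for Gabra6. The cause was not tested. Of 52 list medians, 1 (NRF2 targets) turned sign on the authors' scaling.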
